A study of Rattus norvegicus with 43 samples.

Results

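Major urinary protein (Mup) genes were measured in rat foreskin by every probe of the array whose gene symbol begins with Mup. These were 5 of 22523 probes, and they named 4 of 13337 genes: Mup4, Mup4l3, Mup4l4 (2 probes, ILMN_1354655 and ILMN_1363413) and Mup5. The genes were chosen by measured values: Mup4l4 and Mup4l3 were selected on their differences between the higher dose and corn oil on postnatal day 5, so the values of all Mup genes in that comparison are given as a description with no test. The study dosed pregnant Sprague Dawley rats by gavage, once a day over gestational days 16 to 20, with dibutyl phthalate (DBP), a plasticizer, or with corn oil as the control. At gestational day 20 (GD20) each dose was a study of its own: 5 arrays of DBP at 500 mg/kg/day (DBP500) with 6 corn oil arrays, and 5 arrays of DBP at 100 mg/kg/day (DBP100) with 6 corn oil arrays. At postnatal day 5 (PND5) there were 7 arrays each of DBP500, DBP100 and corn oil. All groups were of the same strain, and each array held RNA pooled from 2 foreskins of a litter on an Illumina RatRef-12 beadchip.

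Mup genes encode small secreted proteins of the lipocalin family, which hold hydrophobic molecules in a barrel-shaped pocket. In rats they are also known as alpha-2u globulins, are made in abundance by the adult male liver under the control of androgens, growth hormone and glucocorticoids, and carry odorants in urine. Different family members are also made by skin-associated glands, among them the preputial gland, a modified sebaceous gland that lies beside the foreskin.

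The genes are close copies of each other. The RefSeq gene table listed 14 genes with a Mup symbol, of which 6 were protein coding and 8 pseudogenes, all on chromosome 5, and 2 of the 6 had no probe of that name. The RefSeq windows upstream of the annotated starts show how alike the copies are. They are printed with that of Obp3, an alpha-2u-type lipocalin gene. It was chosen because its level had the highest correlation with Mup4l4 among the other lipocalins. Each window holds the 250 bases before the start, on the minus strand of chromosome 5 in build GRCr8, at chr5:79759497-79759746 (Mup4), chr5:80318373-80318622 (Mup4l3), chr5:79707808-79708057 (Mup4l4), chr5:79999696-79999945 (Mup5) and chr5:79640676-79640925 (Obp3). Capitals mark the longest run of bases that all 4 Mup windows share, 50 bases long.
Mup4: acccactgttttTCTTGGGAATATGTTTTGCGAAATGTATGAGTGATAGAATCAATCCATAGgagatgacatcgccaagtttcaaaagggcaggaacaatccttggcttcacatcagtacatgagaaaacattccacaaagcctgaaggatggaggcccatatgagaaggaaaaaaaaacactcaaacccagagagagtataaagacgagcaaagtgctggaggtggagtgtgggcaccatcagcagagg
Mup4l3: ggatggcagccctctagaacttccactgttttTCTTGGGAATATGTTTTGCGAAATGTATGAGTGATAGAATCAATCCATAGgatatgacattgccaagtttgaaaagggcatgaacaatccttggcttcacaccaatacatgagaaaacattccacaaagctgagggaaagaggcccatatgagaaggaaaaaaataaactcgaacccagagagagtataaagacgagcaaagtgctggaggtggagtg
Mup4l4: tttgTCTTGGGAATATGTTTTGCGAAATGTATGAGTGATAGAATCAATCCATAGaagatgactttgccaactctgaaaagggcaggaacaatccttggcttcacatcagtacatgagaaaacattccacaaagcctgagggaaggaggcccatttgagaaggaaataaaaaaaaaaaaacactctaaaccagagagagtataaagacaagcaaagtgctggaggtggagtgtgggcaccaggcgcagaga
Mup5: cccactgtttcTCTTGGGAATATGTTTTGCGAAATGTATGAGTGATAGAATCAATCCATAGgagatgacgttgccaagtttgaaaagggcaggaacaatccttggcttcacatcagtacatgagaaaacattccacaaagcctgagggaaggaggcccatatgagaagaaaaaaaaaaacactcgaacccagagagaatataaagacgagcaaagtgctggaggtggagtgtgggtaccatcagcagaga
Obp3: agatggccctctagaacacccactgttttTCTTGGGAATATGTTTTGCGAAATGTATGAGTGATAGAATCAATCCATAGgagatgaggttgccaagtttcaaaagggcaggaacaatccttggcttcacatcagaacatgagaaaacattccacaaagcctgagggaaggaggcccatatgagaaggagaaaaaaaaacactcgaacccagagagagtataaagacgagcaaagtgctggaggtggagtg
Of the 33469 windows in the table, 5 (0.0149%) held this run: the 4 Mup windows and Obp3. Between the Mup windows, 89.6% to 95.2% of aligned bases were identical, and Obp3 was 91.8% to 97% identical to each of them. The TATA box TATAAA occurred 1 time in each of the 5 windows, with its first base 33 bases before the start in Mup4l3 and Obp3 and 52 bases in Mup4, Mup4l4 and Mup5, and 13.1% of all windows held it on either strand. The letters TTCNNNGAA, a STAT-type site, were in none of the 5 windows (7.73% of all windows held them). The steroid receptor half-site AGAACA was on neither strand of the Mup windows, occurred 2 times in Obp3 and was held by 17.6% of all windows on either strand. These matches describe the letters only. Probe sequences were not analysed here, so the signal of a close copy on a probe cannot be told apart from that of the gene it names.

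Values are log2 intensities after background correction and quantile normalization. A probe counted as detected on an array at a detection p-value under 0.05, and it was tested if detected on at least 5 of the 43 arrays, which kept 13577 probes and all 5 Mup probes. Array medians lay between 102.9 and 193.2 intensity units before normalization, 10029 to 12078 probes were detected per array, and 0 pairs of arrays held identical values. The highest signals of the PND5 arrays fell into 2 sets, 15335 to 17753 units in replicates 1 to 4 and 20110 to 29459 in replicates 5 to 7, with every group in both. Of 9 epidermis markers 7 were tested, with summed intensities of 67176 to 88286 units on the PND5 arrays and 31994 to 45894 on the GD20 arrays, and of 5 dermis markers 5 were tested. The skeletal muscle markers, which are no part of the epidermis or dermis lists, summed to 12775 to 36968 units on the PND5 arrays and 183.4 to 6712 units on the GD20 arrays. In such bulk tissue, fewer cells of a type and less RNA per cell cannot be told apart.

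**Figure D1:**
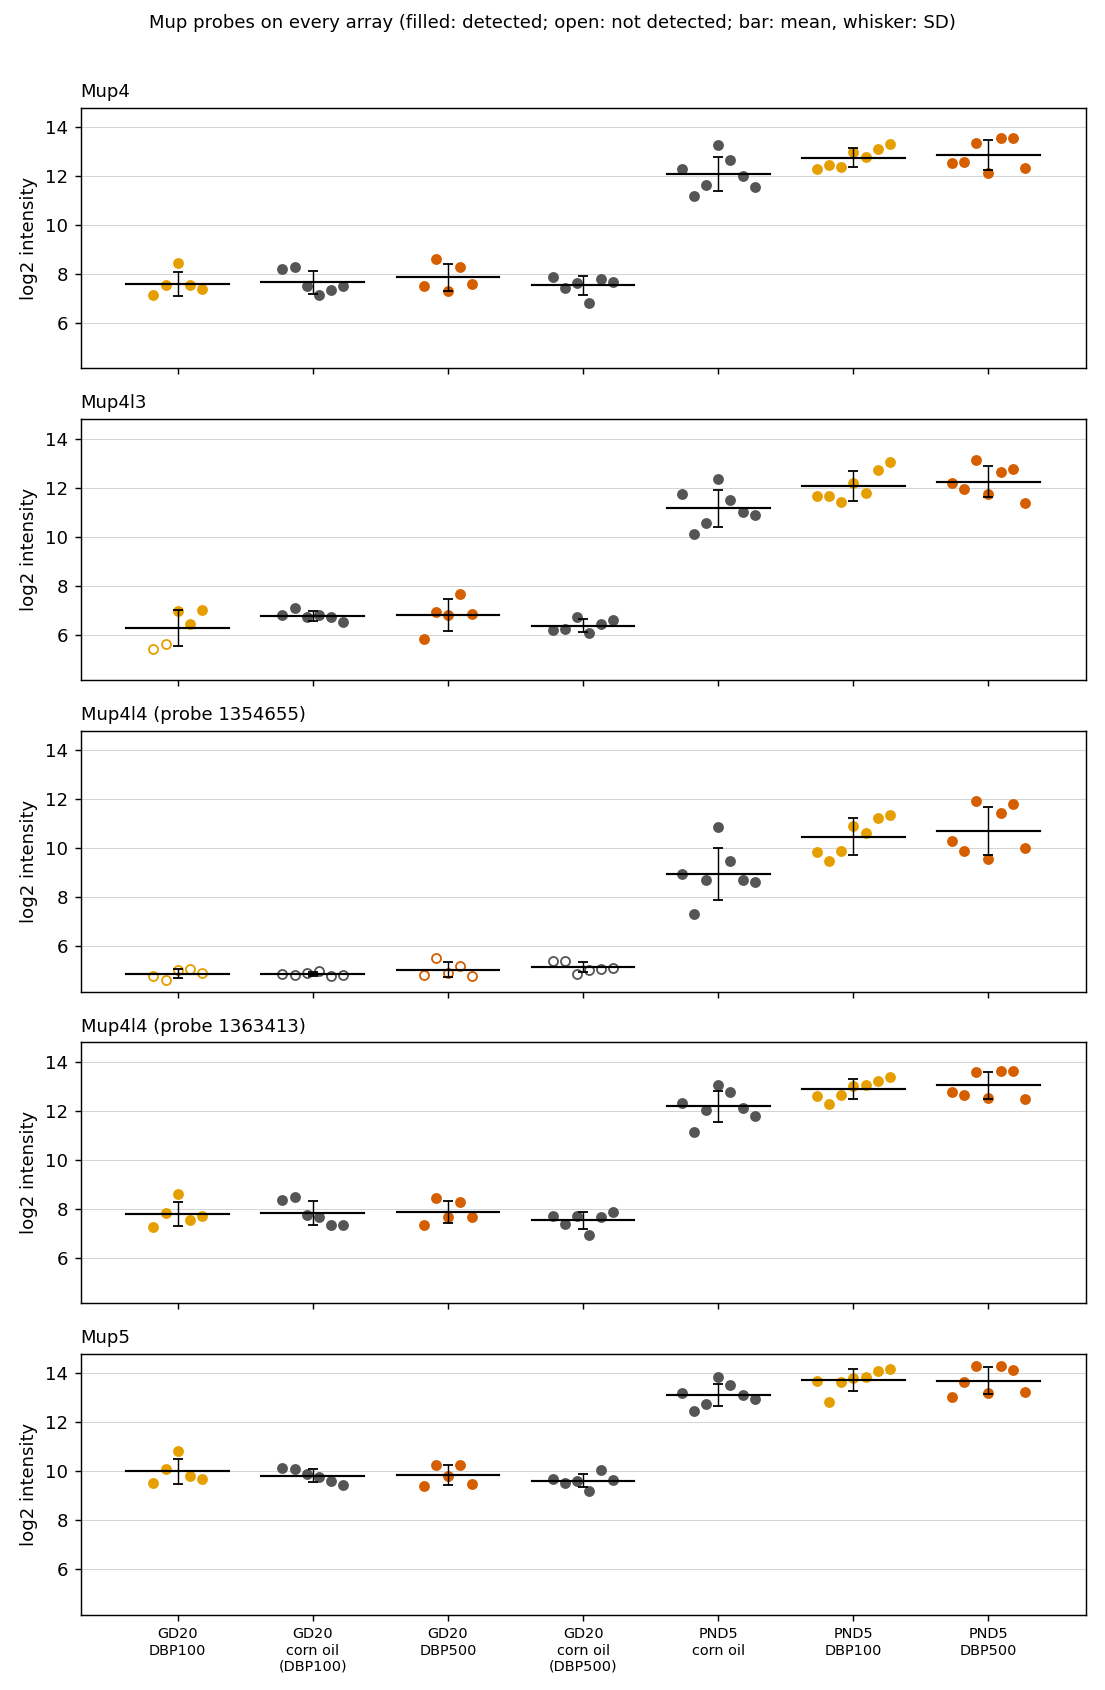
Log2 intensity of each Mup probe (vertical axis) on every array of the 7 groups (horizontal axis), with filled points where the probe was detected, open points where it was not, a bar for the group mean and a whisker for the SD. All PND5 arrays lie above all GD20 arrays for each of the 4 probes detected at both ages. The probe ILMN_1354655, which passed the detection filter only through the PND5 arrays, is open on all 22 GD20 arrays. Of all tested probes, 26.7% were called higher at PND5 in corn oil litters, and the share separated in this way was not counted.

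The largest differences of the Mup genes were between the ages. Mup4, Mup4l3, Mup4l4 and Mup5 were all far brighter in the newborn than in the fetal foreskin of corn oil litters. Mup5 had 12.45, 13.13 and 13.85 (lowest, median and highest of 7 arrays) at PND5, against 9.21, 9.64 and 10.04 in the GD20 corn oil arrays of the DBP500 study and 9.45, 9.82 and 10.15 in those of the DBP100 study (6 arrays each). The groups did not overlap, in a comparison where 26.7% of all tested probes were called higher at PND5. Mup4 had 11.20, 11.99 and 13.25 at PND5, against 6.82, 7.67 and 7.88 and against 7.16, 7.51 and 8.31 at GD20 in the same studies. Mup4l3 had 10.11, 11.01 and 12.34 at PND5, against 6.07, 6.33 and 6.73 and against 6.50, 6.75 and 7.09 at GD20. For both genes the lowest PND5 array stood well above the highest GD20 array.

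The 2 Mup4l4 probes differed in detection. ILMN_1363413 was detected on all 43 arrays and had 11.15, 12.12 and 13.05 at PND5, against 6.92, 7.68 and 7.89 and against 7.34, 7.71 and 8.49 at GD20. ILMN_1354655 was detected on 21 of 21 PND5 arrays and on 0 of 22 GD20 arrays, with 7.33, 8.72 and 10.88 in PND5 corn oil. At GD20 its level has only an upper bound, the detection limit of the arrays. Against that limit ILMN_1354655 was at least 10.6-fold higher in PND5 corn oil than in GD20 corn oil, at least 28.6-fold higher in PND5 DBP100 than in GD20 DBP100, and at least 34.7-fold higher in PND5 DBP500 than in GD20 DBP500.

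In the limma fit to all arrays, the 4 Mup probes detected at both ages were all called higher at PND5 than at GD20 in corn oil litters, where 61.6% of all tested probes were called and 26.7% were called higher. The log2 difference was 4.47 ± 0.239 (SE, n = 7 and 12) for Mup4, 4.59 ± 0.263 for Mup4l3, 4.50 ± 0.223 for Mup4l4 (ILMN_1363413) and 3.40 ± 0.195 for Mup5. These are 22.2, 24.1, 22.6 and 10.5-fold. The adjusted p-values of these 4 probes ran between 6.72e-21 and 9.99e-19. Their median difference was 4.49, beside -0.093 over all tested probes. ILMN_1354655 passed the detection filter only through the PND5 arrays and is left out of this count and median. The PND5 and GD20 arrays belong to separate sets of arrays, so age and array set cannot be told apart.

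Marker genes of several tissues moved with the ages as well, where 61.6% of all tested probes were called and 26.7% were called higher. Among the sebaceous and preputial gland markers 6 of 9 tested genes rose and 2 fell, with a median of 1.22. The rises included Dgat2, which makes triglycerides (2.11 ± 0.123, adjusted p = 1.49e-18), and Scd, a fatty acid desaturase (1.79 ± 0.163, adjusted p = 1.22e-12). Skeletal muscle markers rose in 5 of 5 (median 4.46), adipocyte markers in 3 of 3, and epidermis markers in 5 of 7 with 1 fall. Their part in the Mup difference was not tested. Of the 15 liver markers 6 were tested, and 2 rose (Tf, the transferrin gene, by 1.34 ± 0.174, and Serpina1, a protease inhibitor, by 0.78 ± 0.229) and 2 fell (Fgg and Ahsg). Alb, the serum albumin gene, was detected on 0 of 21 PND5 arrays, as were Ttr, Apoa2, Apob, Fgb and Tat, and 0 of 5 mammary gland markers passed the detection filter.

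The genes that relay hormone signals to Mup genes in liver were a further list. Of 16 listed, 12 were tested, and 5 rose and 0 fell with age in corn oil litters. Of all tested probes, 61.6% were called and 26.7% were called higher in this comparison. Cebpa, a transcription factor of liver and fat cells, rose by 3.36 ± 0.172 (adjusted p = 2.03e-20), Jak2, the kinase of the growth hormone receptor, by 1.17 ± 0.105 (adjusted p = 7.98e-13), and Ghr, that receptor, by 0.66 ± 0.148 (adjusted p = 0.000164). In the other lipocalins, 10 of 22 were tested, 1 rose and 3 fell. The rise was Obp3 (3.56 ± 0.196, adjusted p = 2.15e-19). Orm1, an acute-phase plasma lipocalin, fell by 2.50 ± 0.185 (adjusted p = 3.2e-15), and Lcn2, an iron-siderophore-binding lipocalin, by 0.79 ± 0.212 (adjusted p = 0.00143).

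**Figure D2:**
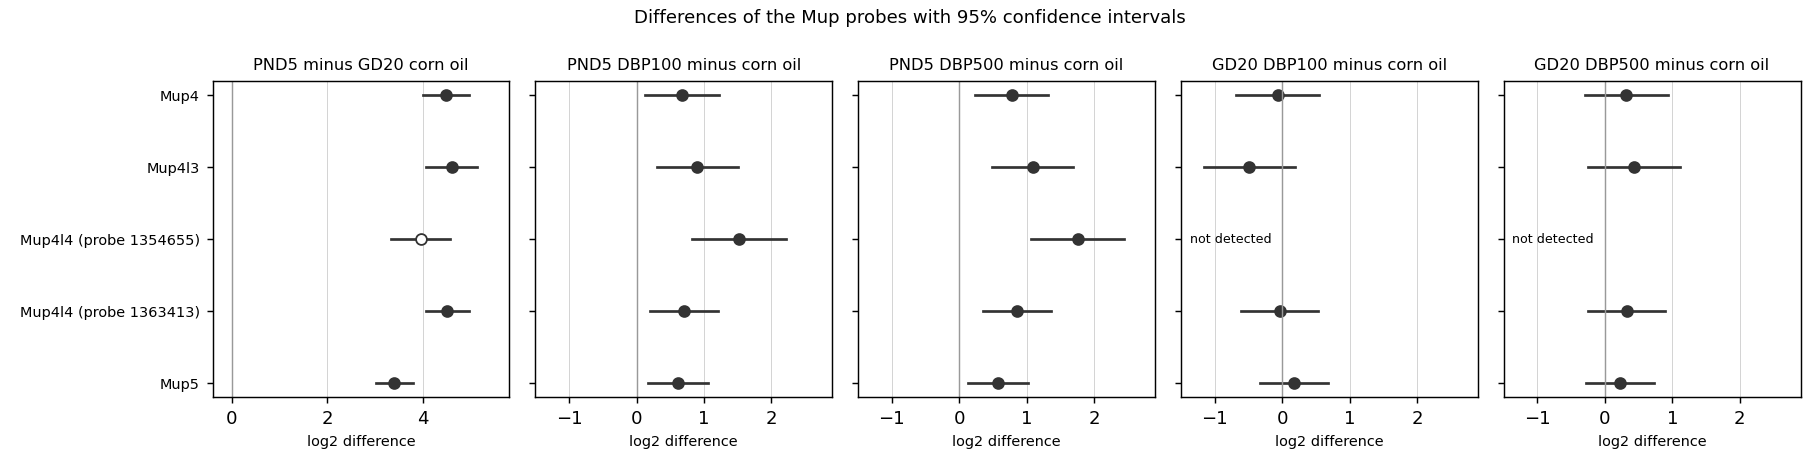
Log2 difference of each Mup probe (points, first group minus second) with its 95% confidence interval in 5 comparisons, where the open point marks a fitted value against GD20 arrays that did not detect the probe. The age intervals lie between 3.004 and 5.12, and the intervals of DBP100 and DBP500 at GD20 include 0. DBP500 at PND5 is shown as a description because the genes were chosen there, and its intervals are no test.

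At PND5 every Mup probe averaged higher in both DBP groups than in corn oil. Mup4l4 (ILMN_1354655) had 7.33, 8.72 and 10.88 in corn oil (lowest, median and highest of 7 arrays), 9.49, 10.62 and 11.38 in DBP100, and 9.56, 10.31 and 11.94 in DBP500. On the scanner's scale its lowest, median and highest signals were 290.5, 524.4 and 1139 units in corn oil, 592.4, 1391 and 2948 in DBP100, and 591.1, 1551 and 4731 in DBP500. Corn oil replicate 4, at 10.88, lay inside both DBP ranges, while 6 of 7 corn oil arrays lay below the lowest array of either dose. Mup4l3 had 10.11, 11.01 and 12.34 in corn oil, 11.42, 11.77 and 13.04 in DBP100, and 11.38, 12.20 and 13.11 in DBP500. Here 4 of 7 corn oil arrays lay below the lowest array of either dose, and the groups overlapped.

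For the other probes the groups also overlapped. Mup4l4 (ILMN_1363413) had 11.15, 12.12 and 13.05 in corn oil, 12.26, 13.001 and 13.39 in DBP100, and 12.48, 12.75 and 13.64 in DBP500. Mup4 had 11.20, 11.99 and 13.25 in corn oil, 12.29, 12.77 and 13.32 in DBP100, and 12.14, 12.57 and 13.57 in DBP500. Mup5, the probe with the smallest differences, had 12.45, 13.13 and 13.85 in corn oil, 12.84, 13.82 and 14.17 in DBP100, and 13.02, 13.65 and 14.31 in DBP500. Of each of the 5 probes, 1 to 3 DBP100 arrays and 3 DBP500 arrays lay above the highest corn oil array.

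For DBP100 against corn oil at PND5, 0 of 5 Mup probes passed an adjusted p under 0.05 in limma, where 0.081% of all tested probes did. At an unadjusted p under 0.05, 5 of 5 were higher, where 5.15% of all tested probes were. The 5 probes varied together over the PND5 arrays (pairwise r of 0.817 to 0.961), so this count is not 5 separate results. This comparison shares its corn oil arrays with the DBP500 comparison in which Mup4l4 and Mup4l3 were picked, so it is not independent of that choice. The difference was 1.52 ± 0.343 (SE; 2.87-fold, n = 7 and 7, adjusted p = 0.063) for Mup4l4 ILMN_1354655, higher than the corn oil median on 7 of 7 arrays. It was 0.90 ± 0.296 (adjusted p = 0.217) for Mup4l3, 0.70 ± 0.251 (adjusted p = 0.257) for Mup4l4 ILMN_1363413, 0.67 ± 0.269 (adjusted p = 0.334) for Mup4 and 0.61 ± 0.22 (adjusted p = 0.26) for Mup5. The median of the 5 was 0.70, beside -2.32e-05 over all tested probes, and ILMN_1354655 had the largest positive difference of the 13577.

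Single arrays decided on which side of the threshold ILMN_1354655 fell. Its adjusted p was 0.00882 without corn oil replicate 4, 0.0301 without DBP100 replicate 1 and 0.0348 without DBP100 replicate 2, and it lay between 0.0608 and 0.136 when any other array of the 2 groups was left out. With arrays weighted by their quality it was 0.0334, and with the PND5 array set as a block 0.0449. Over all settings tried it ran between 0.000275 (replicates 5 to 7 fitted without the other PND5 arrays, a setting chosen after seeing the data) and 0.442 (only the arrays compared). No setting brought the other 4 probes past the threshold, with adjusted p-values of 0.0871 or more.

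The mean of every Mup probe was higher in DBP100 than in corn oil in both sets of PND5 arrays. Both sets hold corn oil arrays of the comparison in which the genes were chosen, so neither is independent of that choice. For ILMN_1354655 the difference was 1.06 ± 0.435 (n = 4 and 4, adjusted p = 0.352) in replicates 1 to 4 and 2.13 ± 0.502 (n = 3 and 3, adjusted p = 0.0694) in replicates 5 to 7. These values come from one limma fit with a mean for each group and set, where 0.118% and 0.0958% of all tested probes were called. In replicates 5 to 7 all 3 DBP100 arrays lay above all 3 corn oil arrays for each of the 5 probes. For ILMN_1354655 the values were 10.62 to 11.38 in DBP100, against 8.62 to 9.47 in corn oil. The 5 probes varied together, so this is not 5 separate results. The share of all tested probes separated in this way was not counted. In replicates 1 to 4 the groups overlapped for every probe, with corn oil replicate 4 above all 4 DBP100 arrays for Mup4, Mup4l3, Mup5 and ILMN_1363413 and below 1 of them for ILMN_1354655. The difference between the sets was 1.07 ± 0.664 (adjusted p = 0.68) for ILMN_1354655 and had an adjusted p of 0.68 or more for all 5 probes, with 0% of all tested probes called.

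**Figure D3:**
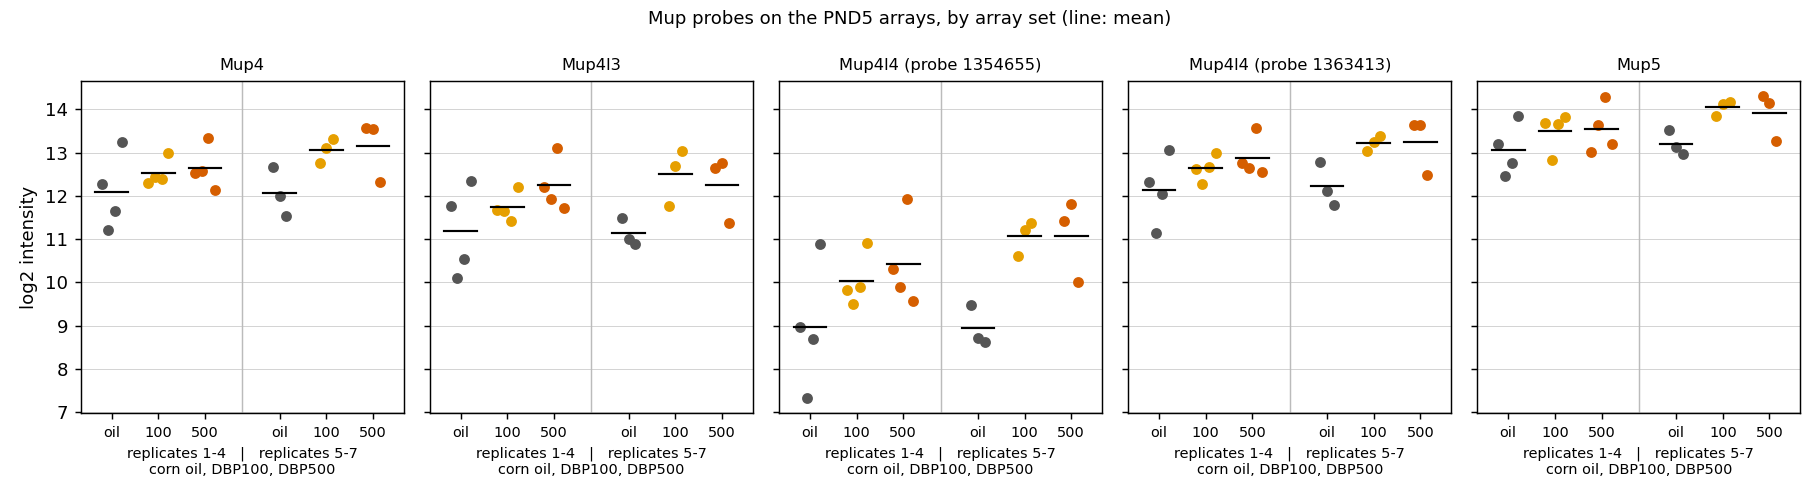
Log2 intensity of each Mup probe (vertical axis) on the PND5 arrays of corn oil, DBP100 and DBP500 litters (horizontal axis), left for replicates 1 to 4 and right for replicates 5 to 7, with a line at each mean. In replicates 5 to 7 the 3 DBP100 points stand above the 3 corn oil points in every panel. The probes varied together, and the share of all tested probes separated in this way was not counted. In replicates 1 to 4 the highest corn oil point lies above all DBP100 points for Mup4, Mup4l3, Mup5 and ILMN_1363413. For ILMN_1354655 it lies inside the DBP100 range, and in every panel it lies inside the DBP500 range.

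For DBP500 against corn oil at PND5 the values are a description, since the genes were chosen there. The log2 difference was 1.75 ± 0.343 (3.37-fold) for Mup4l4 ILMN_1354655, 1.09 ± 0.296 (2.12-fold) for Mup4l3, 0.85 ± 0.251 for Mup4l4 ILMN_1363413, 0.78 ± 0.269 for Mup4 and 0.57 ± 0.22 for Mup5. Of all tested probes 3.67% were called in this comparison, and nothing about the Mup probes is read from that share. The arrays of every PND5 group were spread out. The mean of the 5 Mup probes was 13.12 to 13.25 in DBP500 replicates 3, 5 and 6 and 11.84 to 12.16 in DBP500 replicates 1, 2, 4 and 7. It was 10.45 to 12.68 in corn oil and 11.73 to 13.06 in DBP100. In replicates 1 to 4 the difference of ILMN_1354655 was 1.46 ± 0.435 and in replicates 5 to 7 it was 2.15 ± 0.502.

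The PND5 means of DBP500 and DBP100 litters lay close to each other. DBP500 minus DBP100 was 0.23 (95% confidence interval -0.46 to 0.92) for Mup4l4 ILMN_1354655, 0.18 (-0.41 to 0.78) for Mup4l3, 0.15 (-0.36 to 0.66) for Mup4l4 ILMN_1363413, 0.10 (-0.44 to 0.65) for Mup4 and -0.04 (-0.48 to 0.41) for Mup5. Over all tested probes 0.0516% were called here. The intervals are a description and no test, since the genes were chosen with the DBP500 arrays. Their upper ends lie between 0.41 and 0.92. The 2 doses share the corn oil arrays in their own comparisons, so the likeness of those comparisons is given only as these values side by side.

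At GD20 no difference of a Mup gene with dose passed the test. For DBP500 against the corn oil arrays of its study, 0 of the 4 detected probes were called in limma and 0 had an unadjusted p under 0.05, where 0.302% of all tested probes were called. Mup4l3 had 5.82, 6.95, 6.80, 7.64 and 6.83 in the 5 DBP500 arrays, against 6.07, 6.33 and 6.73 in corn oil (lowest, median and highest of 6). Of these, 4 DBP500 arrays stood above and 1 below all corn oil arrays. The difference was 0.43 ± 0.335 (adjusted p = 0.903) for Mup4l3, 0.32 ± 0.305 for Mup4, 0.33 ± 0.284 for Mup4l4 ILMN_1363413 and 0.22 ± 0.249 for Mup5, with adjusted p-values between 0.903 and 0.969. Among the gland markers Elovl3, which lengthens fatty acids (1.18 ± 0.276, adjusted p = 0.0401), and Scd (1.003 ± 0.207, adjusted p = 0.0137) rose in the same comparison, and their part in the Mup values was not tested.

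For DBP100 against the corn oil arrays of its study, 0 of 4 detected probes were called and 0 had an unadjusted p under 0.05, where 0.589% of all tested probes were called. Mup4l3 had 5.43, 5.61, 6.97, 6.42 and 6.99 in the 5 DBP100 arrays, against 6.50, 6.75 and 7.09 in corn oil, and was not detected on the first 2 of them. Its difference was -0.48 ± 0.335 (adjusted p = 0.654), with overlapping groups. Mup4 had 7.16, 7.54, 8.44, 7.54 and 7.38 in DBP100, against 7.16, 7.51 and 8.31 in corn oil, and its difference was -0.06 ± 0.305. Mup4l4 ILMN_1363413 and Mup5 differed by -0.03 ± 0.284 and 0.17 ± 0.249, and DBP100 replicate 3 was the highest array of its group for both. The signs of the Mup4, Mup4l4 and Mup5 differences changed when single arrays were left out.

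The effects of the doses at GD20 were compared as a difference of differences, DBP500 effect minus DBP100 effect. It was 0.92 ± 0.474 (adjusted p = 0.488) for Mup4l3 and between 0.05 and 0.38 for the other 3 detected probes, and 0 of 4 were called, where 0.133% of all tested probes were. The corn oil arrays of the DBP500 study minus those of the DBP100 study gave -0.40 ± 0.319 for Mup4l3 and -0.28 to -0.13 for the others, with 0 of 4 called where 22% of all tested probes were. The DBP500 effect at PND5 minus that at GD20 was 0.65 ± 0.447 for Mup4l3, 0.53 ± 0.379 for Mup4l4 ILMN_1363413, 0.46 ± 0.407 for Mup4 and 0.35 ± 0.332 for Mup5, given as a description because it holds the comparison in which the genes were chosen (0.412% of all tested probes were called). ILMN_1354655, undetected on all GD20 arrays, is not part of these 4.

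The Mup probes varied together within the groups. Over the 21 PND5 arrays, as deviations from the group means, Pearson's r between pairs of Mup probes lay between 0.817 (Mup4l3 and Mup5) and 0.961 (the 2 Mup4l4 probes). Over the 22 GD20 arrays it was 0.917 between Mup4 and Mup4l4 ILMN_1363413, 0.846 between Mup4 and Mup5, and 0.52 to 0.64 between Mup4l3 and these 3 probes. The points share their array, its normalization and possibly signal from the same transcripts, so these values describe the arrays and are no test.

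The named genes most like Mup4l4 ILMN_1363413 outside the Mup symbols were taken as the 5 of highest r in each set of arrays. Over the deviations of all 43 arrays they were Pank1, a kinase of coenzyme A synthesis (r = 0.779), Fgg, a fibrinogen chain (0.726), Obp3 (0.715), Thrsp, a thyroid-hormone-responsive lipogenic protein (0.671), and Ivd, a mitochondrial enzyme of leucine breakdown (0.656). Over the 21 PND5 arrays they were Zcchc9 (0.788), Pank1 (0.786), Ivd (0.770), Sulf1, a heparan sulfate sulfatase (0.741), and Glyatl2, a glycine acyltransferase relative (0.731). Several of these genes were near the detection limit: at PND5 Glyatl2 was detected on 4 of 21 arrays, Fgg on 8, Thrsp on 11 and Sulf1 on 15, while Pank1, Ivd, Zcchc9 and Obp3 were detected on all 21. The median r over all tested probes was 0.00642 and 0.0135 in these sets of arrays. The named genes were picked for their high r, so standing above this median is no test of likeness. Of 4007 tested probes with no gene symbol, 4 over all arrays and 5 over the PND5 arrays had an r at or above the lowest of a Mup probe (0.768 and 0.892).

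Obp3 was the gene outside the Mup symbols whose upstream window held the shared run. Because it was chosen for its r with Mup4l4, its r values with the Mup probes are a description and no test. At PND5 it lay between 8.86 and 10.02 in corn oil, 9.21 and 10.53 in DBP100, and 9.22 and 10.70 in DBP500, with overlapping groups. DBP100 minus corn oil was 0.62 ± 0.22 (limma adjusted p = 0.257). DBP500 minus corn oil was 0.72 ± 0.22, a description, since the Mup genes it was matched to were chosen in that comparison. At GD20 it was detected on 4 of 5 DBP500 and 3 of 6 corn oil arrays in one study and on 1 of 5 DBP100 and 4 of 6 corn oil arrays in the other, and its differences were 0.32 ± 0.249 and -0.06 ± 0.249. Over the 21 PND5 arrays r with Obp3 was 0.892 for Mup4l3, 0.775 for Mup4, 0.748 and 0.691 for the Mup4l4 probes and 0.591 for Mup5. Of the 10 tested lipocalins outside the Mup symbols, 0 were called for either dose at either age.

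The sums of the gland markers overlapped between the PND5 groups. The summed intensity of the 9 tested sebaceous and preputial gland markers was 8273 to 9936 units in corn oil, 7869 to 11480 in DBP100 and 9332 to 10827 in DBP500. With DBP100 0 of 9 were called and 7 were higher, with a median difference of 0.12. The sum is carried by the brightest of these probes. Among the dimmer ones, Pparg averaged 7.52 in DBP100 and 7.29 in corn oil, and Fads2 5.64 and 5.57. Acaca was lower in DBP100, at 6.66 against 6.84. Elovl3 and Soat1 had larger differences than these. Elovl3 averaged 7.75 ± 0.396 in DBP100 and 6.93 ± 0.581 in corn oil (SD, n = 7 each; difference 0.82 ± 0.244, adjusted p = 0.162). Soat1, which esterifies cholesterol, averaged 6.29 ± 0.327 in DBP100 and 5.57 ± 0.354 in corn oil (difference 0.72 ± 0.2, adjusted p = 0.124). With DBP100 the differences of Elovl3 and Soat1 were of the size of those of Mup4, Mup4l3, Mup5 and Mup4l4 ILMN_1363413. They were smaller than the 1.52 of Mup4l4 ILMN_1354655. In DBP500 Elovl3 averaged 7.15 and Soat1 5.94, against 6.93 and 5.57 in corn oil. Both markers were named after their values were seen, and their part in the Mup values was not tested. With DBP500 1 was called, where 3.67% of all tested probes were. This was Acaca, the first enzyme of fatty acid synthesis, which fell by 0.52 ± 0.152 (limma adjusted p = 0.0422). Over the deviations of the 21 PND5 arrays, r between the log2 sum and the mean of the Mup probes was 0.176. Mc5r, a melanocortin receptor of sebaceous glands, and Plin5 were detected on 0 of 43 arrays, and 8 of the 19 listed gland genes, Awat1, Awat2 and Krt79 among them, had no probe of that name.

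**Figure D4:**
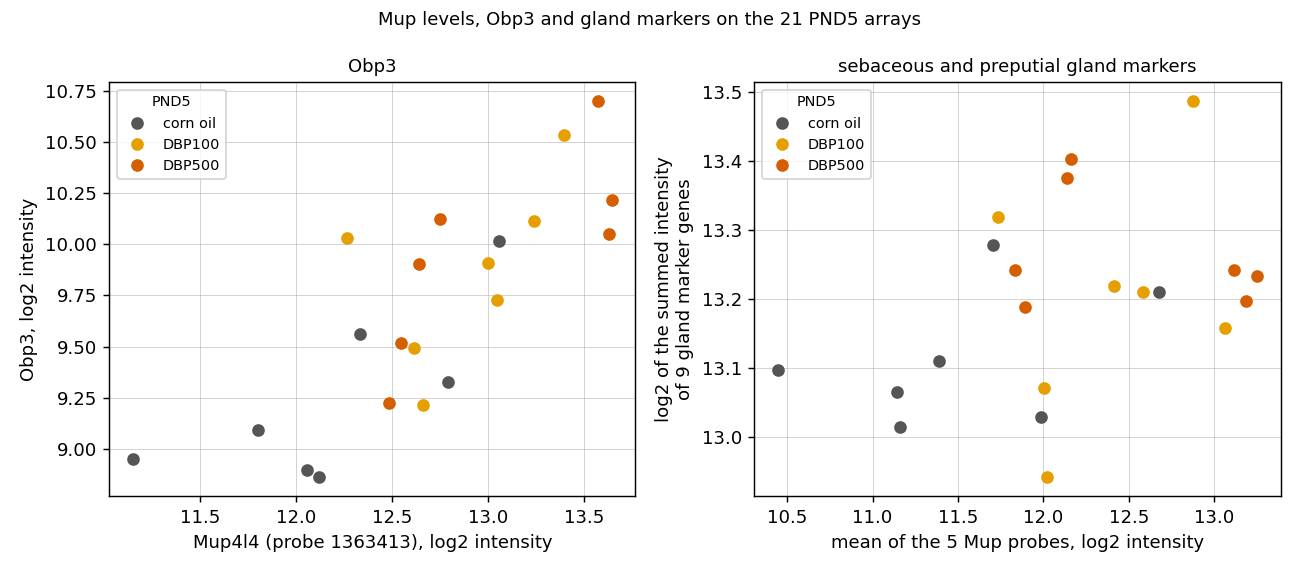
Left, log2 intensity of Obp3 (vertical axis) against Mup4l4 ILMN_1363413 (horizontal axis), and right, log2 summed intensity of the 9 gland markers (vertical axis) against the mean of the 5 Mup probes (horizontal axis), 1 point for each of the 21 PND5 arrays, coloured by group. Obp3, which was chosen for its r with Mup4l4, climbs with it (r = 0.691 of the deviations). The gland sum, which its brightest probes carry, had an r of 0.176 with the Mup mean.

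Of the hormone signalling genes 0 of 12 were called with DBP100 at PND5, where 0.081% of all tested probes were. With DBP500 1 was called, where 3.67% of all tested probes were. This was Socs2, a growth-hormone-induced inhibitor of that receptor's signal, which fell by 0.83 ± 0.247 (limma adjusted p = 0.047). Summed levels of the liver markers were 1295 to 1806 units in corn oil, 1351 to 3122 in DBP100 and 1385 to 2039 in DBP500, with 0 of 6 called for either dose, and r with the Mup mean was 0.468 over the PND5 arrays. Alb was detected on 0 of 7 arrays in each PND5 group. Skeletal muscle sums had an r of -0.402 with the Mup mean over these arrays. Adipocyte and leukocyte sums had an r of 0.43 and 0.432 with it, with 0 of 3 and 0 of 4 genes called, and their part in the Mup differences was not tested.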

How the data were processed

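Foreskin RNA was measured on 43 arrays. The deposited non-normalized table pairs, per the file headers, every array's signal intensity with its detection p-value, over 22523 probes. A second deposited table holds the authors' processed intensity on a linear scale. Its sorted values are nearly equal among the arrays of a GD20 study and among those of PND5, its steps are not given in the sources used here, and it serves as an alternative. The submitters' processing notes name limma; its version is not given in the sources used here. Groups and replicate numbers come from the sample titles, which call the replicates biological.

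From the non-normalized signals, background was estimated from the detection p-values (limma 3.58.1 in R 4.3.3, offset 16), all arrays were quantile-normalized, and log2 was taken. The limma model held a mean for each of the 7 groups and covered 13577 detected probes (60.3%), with moderated variance and two-sided p-values adjusted by Benjamini-Hochberg over all of them. The steps were tested on simulated data, in which 200 probes taken at random from the 13577 were changed, with noise independent between probes. For DBP100 at PND5, 44.8%, 97% and 98.5% of log2 changes of 0.5, 1 and 2 were recovered. These shares do not give the share for the Mup probes, whose SE in that comparison was 0.22 to 0.343. A fold against a group with no detection is a lower bound, against the mean per-array higher of the detection limit and the probe's own signal. Precision is limited by how many arrays a group holds.

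The Mup genes, the 10 gene lists and the tests were chosen with earlier results of these data known. Named genes were all Mup probes and up to 4 list members past the threshold per comparison. The 5 genes most like Mup4l4 in each set of arrays were named as well. List members named for not being detected were chosen after their values were seen, as were the gland markers named for DBP100 at PND5. Probes carry 1 gene symbol (13793) or none (8730). No pair of groups had every correlation between same-numbered replicates over 0.1, so the arrays were fitted as unpaired. So strict a rule cannot exclude that the numbers pair arrays. Alternatives varied the offset, background, normalization, filter, arrays fitted, weights, array set, controls and each array in turn.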

Additional observations from a re-analysis of the deposited data

Results flagged for a closer look

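In 1 of the 31 groups of 4 to 10 arrays examined for the Mup probes, 1 array stood far from the others. Mup5 read 12.84 in PND5 DBP100 replicate 2, against 13.67 to 14.17 on the other 6 DBP100 arrays. Chance alone would give such a gap in about 5% of groups. The same array had the lowest DBP100 value of both Mup4l4 probes. Without it the Mup5 difference, DBP100 minus corn oil, was 0.76 (limma adjusted p = 0.148), against 0.61 (adjusted p = 0.26) with it.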

How the results depend on the processing

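The 4 Mup probes detected at both ages were all called in the age comparison under every alternative run, and the GD20 dose comparisons kept 0 of 4. For DBP100 at PND5 the count of Mup probes called was 0, but 1 (ILMN_1354655) with array weights, 1 with the PND5 array set as a block, 1 within replicates 5 to 7 with the other PND5 arrays left out (adjusted p = 0.000275, a fit chosen after seeing the data; 0 called, adjusted p = 0.0694, for the same arrays in one fit to all), and 0 to 1 when single arrays were left out. Over these settings the count among all tested probes ran between 0 and 158, against 11, for DBP100 at GD20 between 0 and 1118, against 80, and for DBP500 at GD20 between 0 and 352, against 41. For DBP500 against corn oil at PND5 it was 0 to 910, against 498, for DBP500 against DBP100 0 to 381, against 7, for the difference of GD20 effects 0 to 1529, against 18, and for that of the DBP500 effects 4 to 264, against 56. With the replicate number as a block 0 Mup probes were called for DBP100 at PND5 (adjusted p = 0.284 for ILMN_1354655) and all 4 of those detected at both ages for age. Whether the numbers pair the arrays is not known. Between the GD20 corn oil groups 1 probe, Mup4l3 (-0.40, adjusted p = 0.0389), was called when only those arrays were fitted, against 0. The median DBP500 difference at PND5 lay between 0.68 and 0.998 with single arrays left out. Among the tested differences, the signs that turned were all at GD20 and none was called. Among the described ones, DBP500 minus DBP100 at PND5 turned as well: Mup4 was -0.017 at the lowest and Mup5 reached 0.078 with single arrays left out, and Mup4l3 was -0.24 within replicates 5 to 7. For DBP100, Mup4 was 0.0699 and Mup4l4 0.035 with array weights, and 0.00288 and 0.10 with both control groups pooled; with single arrays left out they ran from -0.27 to 0.066 and from -0.24 to 0.099, and Mup5 from -0.0299 to 0.29. The Mup5 difference of effects was -0.15 with pooled controls and -0.066 to 0.25 with single arrays left out. Between the control groups, Mup5 was 0.073 with a median shift and Mup4 ran from -0.23 to 0.019 with single arrays left out. The bound of 28.6-fold for ILMN_1354655 was 48.1 with the undetected group's own mean signal. The cause of these changes was not tested. Groups of 5 to 7 arrays limit the precision. In simulated data for DBP100 at PND5 only 44.8% of log2 changes of 0.5 were recovered, over probes taken at random and not the Mup probes.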
